A study of Mus musculus with 4 samples.

Results

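The transcripts described here are those of 36 aminoacyl-tRNA synthetase genes, 20 for enzymes of the cytosol and 16 for enzymes of mitochondria, out of 24062 gene rows. They were chosen by symbol from the deposited table of read counts. Aminoacyl-tRNA synthetases join each amino acid to its tRNA, the step that fixes the meaning of the genetic code. Most amino acids have a pair of nuclear genes, one for the enzyme that charges tRNAs in the cytosol and one, with a symbol ending in 2, for the enzyme that is imported into mitochondria and charges the tRNAs encoded by mitochondrial DNA. In vertebrates the cytosolic and mitochondrial forms of the glycine and lysine enzymes come from single genes, Gars and Kars. Several cytosolic synthetase genes are known targets of ATF4, the transcription factor of the amino acid response, and Nrf1 (nuclear respiratory factor 1) is known for activating nuclear genes of mitochondrial function. The data below give the transcript levels of both sets of synthetases in wildtype embryonic mouse retinas and in retinas with a conditional deletion of Nrf1.

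All 36 genes were found, the cytosolic ones under older symbols without the suffix 1 (Cars, Hars and so on), and all passed the filter on low counts that left 15762 genes. RNA-seq was done on retinas of E13.5 embryos of a C57BL/6 129 mixed strain, with 2 wildtype libraries and 2 libraries of Nrf1 f/f;Six3-Cre retinas, labelled Nrf1-CKO. In the latter both Nrf1 alleles are floxed and the Six3-Cre transgene deletes Nrf1 in retinal progenitor cells (RPCs), starting in the central retina, so that cells outside its domain keep the gene. The labels name no allele or transgene in the wildtype embryos. Each library was made from a pool of retinas of multiple littermates. Nothing in the labels says that the 2 pools of a genotype came from separate litters, so the p-values measure only the spread between libraries.

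From 74577660 to 85933945 reads were counted on genes per library. Nrf1 itself had wildtype counts of 9052 and 7789 and Nrf1-CKO counts of 8594 and 8284 (log2 fold change -0.03 ± 0.07, standard error). A count over the whole gene cannot check the label, since the floxed allele loses only part of the gene. RPC markers summed to 7715 and 8276 CPM (read counts scaled to library size) in wildtype, and Nrf1-CKO libraries had 5968 and 6538 CPM, and 2 of the 10, Fgf15 and Ccnd1, were lower. The makeup of the tissue differed between genotypes. All 8 markers of retinal ganglion cells (RGCs) were lower in Nrf1-CKO retinas, with sums of 1476 and 1691 CPM against 571 and 432 CPM. All 9 lens genes were higher, with sums of 154 and 423 CPM against 8878 and 3627 CPM, and all 6 genes of macrophages and microglia were higher, with 63.8 and 57.2 CPM against 191 and 229 CPM. Of the markers tested, 3 of 4 of pigment epithelium, 4 of 6 of periocular mesenchyme, 4 of 5 of endothelium and 2 of 4 of erythroid cells were also higher. These marker counts use the rule given below, 1.4-fold with an edgeR adjusted p of at most 0.2. By it 8.04% of all genes tested were lower and 12.8% higher. The remaining endothelial marker, Kdr, was lower (log2 fold change -0.55), and the endothelial sums were 254 and 260 CPM in wildtype against 265 and 258 CPM in Nrf1-CKO. The erythroid genes Hba-a1 and Hbb-bt had no reads in any library. In such bulk samples fewer cells of a type and less RNA per cell cannot be told apart, and the part of these shifts in the values below was not tested.

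The promoters of the synthetase genes were searched for the letters that bear on the Nrf1 genotype and on the amino acid response. The window was the 300 bases from 250 before to 50 after the RefSeq start (build GRCm38.p6), which was found for 27 of the 36 genes, 13 cytosolic and 14 mitochondrial. Cars, Hars, Lars, Nars, Rars, Vars, Wars, Hars2 and Pars2 had no entry. GCGCANGCG, the Nrf1 motif, was searched on both strands, and the 7 genes that hold it are shown with 10 bases on each side and the motif in capitals, 5′ to 3′ on the strand of the gene. Tars and Vars2 each hold the motif at another position as well.
Farsb, chr1:78488851-78488879, minus strand: cccgcatgtgGCGCAGGCGcagtgtccac
Kars, chr8:112011384-112011412, minus strand: cccagcactgCGCCTGCGCagcgagagtc
Tars, chr15:11399615-11399643, minus strand: tggccacgtgGCGCACGCGcagtgcggaa
Iars2, chr1:185329374-185329402, minus strand: cgccccggagCGCGTGCGCagttcctcgc
Mars2, chr1:55237169-55237197, plus strand: ccgtccagctGCGCACGCGccctttcccg
Vars2, chr17:35667621-35667649, minus strand: gagtcttttaCGCATGCGCctgcgtgtcc
Wars2, chr3:99141016-99141044, plus strand: cagaggacagGCGCATGCGtagtaagcac

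Thus 3 of 13 cytosolic and 4 of 14 mitochondrial promoters held the Nrf1 motif, together 25.9% of the 27. The motif was held by 7.03% of all 27025 genes with a promoter that was searched. Of the 12283 genes tested for a change that had such a promoter, 1667 held it. TGATGNAA, the composite site of ATF4 and C/EBP proteins, was found on either strand in 5 promoters, 18.5% of the 27. Of all genes with a promoter searched 4.51% held it, and of the 12283 tested genes 342 did. All 5 were cytosolic, and none of the 14 mitochondrial promoters held these letters. The windows of 4 of them are shown in the same way to place them beside the response of known ATF4 targets given further on. Tars holds both motifs, which do not overlap there. A match is a run of letters and was not tested as a binding site.
Gars, chr6:55037961-55037988, plus strand: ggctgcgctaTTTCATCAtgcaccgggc
Iars, chr13:49682127-49682154, plus strand: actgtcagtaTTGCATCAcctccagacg
Tars, chr15:11399656-11399683, minus strand: aggagtcccgTTGCATCAgctggttagc
Yars, chr4:129189896-129189923, plus strand: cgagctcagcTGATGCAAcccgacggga

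To ask whether loss of Nrf1 altered these transcripts, the Nrf1-CKO libraries were compared with wildtype. With thresholds of 1.4-fold and an adjusted p of 0.2 (edgeR's quasi-likelihood test with Benjamini-Hochberg adjustment over all genes tested), only Lars2 among the 36 genes passed, as higher. No cytosolic synthetase passed in either direction. Over all genes tested 8.04% were called lower and 12.8% higher by the same rule. With a threshold of 0.05 on the adjusted p and none on the fold, Gars and Sars were lower and Lars2 was higher, where 10.9% of all genes tested were lower and 11.9% higher. The median log2 fold change was 0.01 for the 20 cytosolic and 0.06 for the 16 mitochondrial genes (0.05 without Lars2), beside 0.00073 for all genes tested.

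The 95% interval of the log2 fold change lay within 1.4-fold in both directions, that is within 0.49 on the log2 scale, for all 20 cytosolic genes and for 15 of the 16 mitochondrial genes, Lars2 being the exception. Over all genes tested this held for 46.6%. Without Lars2, the interval bound farthest from 0 was 0.44 on the log2 scale, for Sars. The median standard error was 0.08 for the cytosolic, 0.10 for the mitochondrial and 0.12 for all genes. Among the cytosolic genes the read count per library ran from 4514 (Cars) to 37737 (Eprs).

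**Figure D1:**
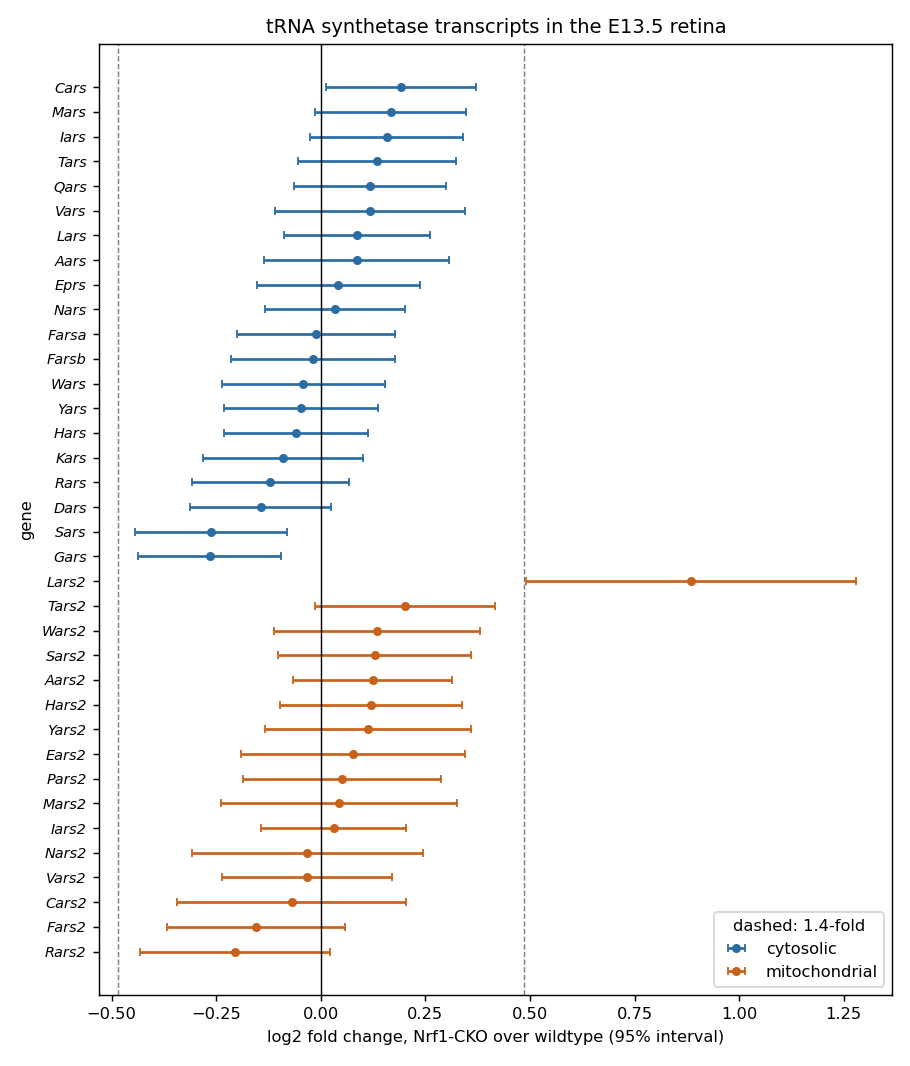
Log2 fold change of each synthetase gene (x axis, Nrf1-CKO over wildtype) with its 95% interval from edgeR, cytosolic genes above and mitochondrial genes below. Dashed lines mark 1.4-fold, a log2 value of 0.49 in either direction, and the intervals of 35 of the 36 genes lie between them while that of Lars2 lies above.

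Lars2 encodes the mitochondrial leucyl-tRNA synthetase. It held 1838 and 2208 wildtype reads and 3369 and 4396 Nrf1-CKO reads. Both Nrf1-CKO libraries lay above both wildtype libraries, although the libraries of each genotype also differed from each other. The means were 25.4 CPM ± 6.21 (SD, n = 2) and 46.8 CPM ± 8.90 (SD, n = 2), 185% of wildtype, and the log2 fold change was 0.89 ± 0.17 (SE, edgeR's quasi-likelihood test, adjusted p = 0.00662). Its cytosolic counterpart Lars had a log2 fold change of 0.09 ± 0.08 (adjusted p = 0.474 in the same edgeR fit).

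A row for the precursor of ribosomal RNA, Rn45s, moved in the same direction as Lars2. It held 1170972 and 1504997 wildtype reads and 3378690 and 3189201 Nrf1-CKO reads, a log2 fold change of 1.23 ± 0.16 (edgeR adjusted p = 0.000794). In wildtype the library with more Rn45s also had more Lars2, and in Nrf1-CKO it had less. Bases 3172 to 3313 of the 3894 bases of the principal Lars2 transcript share stretches of 25 bases with the annotated gene AA474408, and bases 3278 to 3329 do so with Gm15564, neither of which has a row in the count table. The part of shared sequence or of ribosomal RNA in the Lars2 count was not tested, and its value is therefore uncertain.

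Gars encodes the glycyl-tRNA synthetase of both compartments. Its wildtype counts were 17344 and 14296 and its Nrf1-CKO counts 13167 and 13790, and after scaling both Nrf1-CKO libraries were below both wildtype libraries. The means were 195 CPM ± 3.75 and 163 CPM ± 5.79 (SD, n = 2 each), 83.2% of wildtype (log2 fold change -0.27 ± 0.08, edgeR adjusted p = 0.0345). Sars, the cytosolic seryl-tRNA synthetase, held 14741 and 12848 wildtype reads and 11274 and 12343 Nrf1-CKO reads. The means were 171 CPM ± 3.46 and 142 CPM ± 9.53 (SD, n = 2 each), 83.4% of wildtype (log2 fold change -0.26 ± 0.08, edgeR adjusted p = 0.0458). Neither reached 1.4-fold. Both calls were lost when wildtype replicate 1, wildtype replicate 2 or Nrf1-CKO replicate 1 was left out, with adjusted p-values of 0.202, 0.148 and 0.117 for Gars and of 0.169, 0.243 and 0.189 for Sars. The log2 fold changes were then -0.24, -0.28 and -0.23 for Gars and -0.28, -0.24 and -0.19 for Sars. With upper-quartile scaling the edgeR adjusted p-values were 0.0624 for Gars and 0.0811 for Sars, and the log2 fold changes were -0.23 and -0.22.

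The other cytosolic genes ranged from a log2 fold change of -0.14 (Dars, aspartyl-tRNA synthetase) to 0.19 (Cars, cysteinyl-tRNA synthetase), and none passed either threshold. After Cars the next values were 0.17 for Mars, 0.16 for Iars and 0.13 for Tars, which charge methionine, isoleucine and threonine tRNAs. The nearest to 0 were Farsa and Farsb, the subunits of the phenylalanyl-tRNA synthetase, at -0.01 and -0.02. In 13 of the 20 genes the libraries of the genotypes did not overlap in CPM, 6 of them lower and 7 higher in Nrf1-CKO. Among all genes tested 31.6% were lower and 30.9% higher without overlap, close to the cytosolic share in both directions.

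In the cytosol 8 of these genes supply the synthetases of the multisynthetase complex, namely Dars, Eprs, Iars, Kars, Lars, Mars, Qars and Rars. Their log2 fold changes lay between -0.14 and 0.17 with a median of 0.06, and those of the 12 genes outside the complex lay between -0.27 and 0.19 with a median of -0.02. The scaffold proteins of the complex, Aimp1, Aimp2 and Eef1e1, had values of -0.07, -0.11 and -0.28. Only Eef1e1 had an adjusted p below 0.05 (edgeR adjusted p = 0.0459), with 3341 and 2728 wildtype reads and 2640 and 2465 Nrf1-CKO reads, and it was named after its value was seen.

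Among the mitochondrial genes other than Lars2 the log2 fold changes ran from -0.21 (Rars2, arginyl-tRNA synthetase) to 0.20 (Tars2, threonyl-tRNA synthetase). Rars2 held 2773 and 2073 wildtype reads and 2111 and 2176 Nrf1-CKO reads (edgeR adjusted p = 0.183). The value of Rars2 was -0.11 without wildtype replicate 1 and -0.29 without wildtype replicate 2. Tars2 held 4015 and 3411 wildtype reads and 4013 and 4741 Nrf1-CKO reads (edgeR adjusted p = 0.17). The value of Tars2 was 0.32 without Nrf1-CKO replicate 1 and 0.07 without Nrf1-CKO replicate 2. The libraries of the genotypes did not overlap for 8 of the 16 genes, with 2 lower and 6 higher in Nrf1-CKO, where 31.6% of all genes tested were lower and 30.9% higher without overlap.

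**Figure D2:**
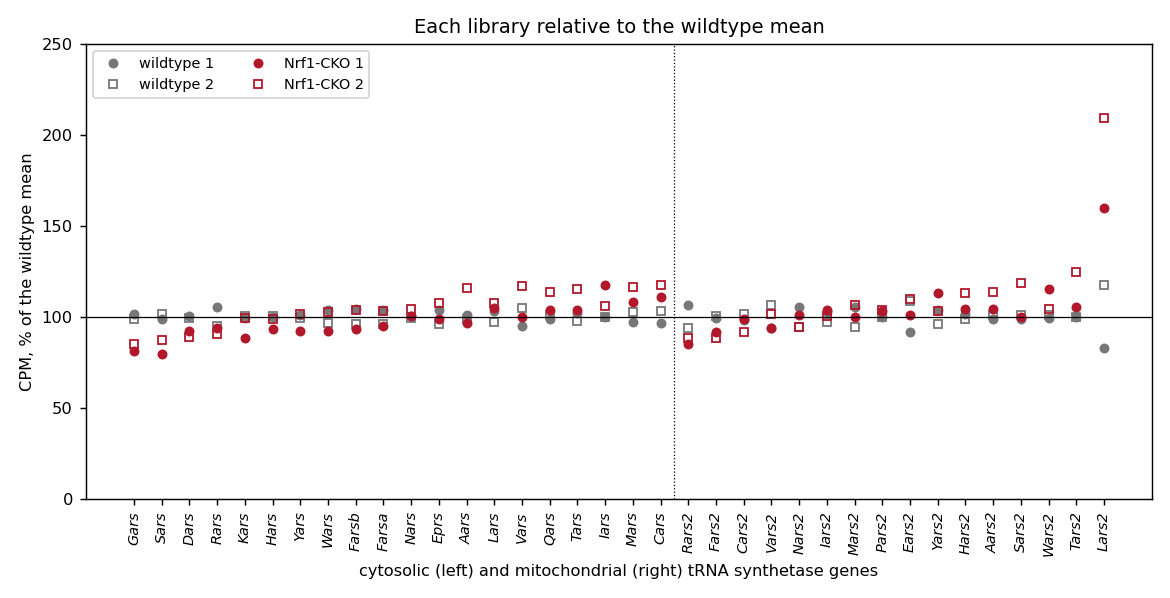
CPM of each synthetase gene in each library as a percentage of the wildtype mean (y axis), with wildtype libraries in grey and Nrf1-CKO libraries in red, and genes ordered by log2 fold change within the cytosolic and the mitochondrial set. Lars2 stands at 185% of wildtype on average, Gars and Sars at 83.2% and 83.4%, and the means of the other genes lie between 86.7% (Rars2) and 115% (Tars2).

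The cytosolic and mitochondrial sets were then compared with each other. The cytosolic genes summed to 3269.7 and 3231 CPM in wildtype, against 3142 and 3418 CPM in Nrf1-CKO, so that the genotypes overlapped. The mitochondrial genes summed to 458 and 468 CPM in wildtype, against 482 and 515 CPM in Nrf1-CKO. Without Lars2 these sums were 437 and 438 CPM against 441 and 462 CPM. The ratio of the cytosolic to the mitochondrial sum was 7.14 and 6.91 in wildtype, against 6.52 and 6.64 in Nrf1-CKO. Without Lars2 it was 7.48 and 7.38 in wildtype, against 7.12 and 7.41 in Nrf1-CKO, and the genotypes overlapped. With 2 libraries against 2, an exact permutation test cannot give a two-sided p below 0.33, so no test was made on these sums.

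Levels of different genes were compared per length, as CPM per kilobase of the principal transcript (RPKM). In wildtype replicate 1 the cytosolic genes ran from 17.6 RPKM (Cars) through a median of 50.3 to 115 RPKM (Kars), and the mitochondrial genes from 1.15 RPKM (Mars2) through 10.4 to 19.1 RPKM (Tars2). In Nrf1-CKO replicate 1 the medians were 47.1 and 10.9 RPKM. The same genes held the lowest and the highest place in all 4 libraries. Cars was the only cytosolic gene whose wildtype mean lay below that of the highest mitochondrial gene.

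For 16 pairs of counterparts, with Ears2 and Pars2 both set beside the bifunctional Eprs and Fars2 beside Farsa, the cytosolic gene was the higher per length in every pair. In the wildtype the ratio ran from 1.48 (Tars to Tars2) through a median of 4.21 to 37.0 (Mars to Mars2, whose annotated transcript of 11294 bases is the longest of the set). The log2 fold change of the mitochondrial gene was above that of its counterpart in 9 pairs and below it in 7, with a median difference of 0.02. The ratio of mitochondrial to cytosolic CPM was higher in both Nrf1-CKO libraries than in both wildtype libraries for Lars2, Sars2 and Hars2, lower for Cars2, Iars2, Rars2 and Vars2, and overlapped for the other 9 pairs. For single genes, 31.6% of all those tested were lower and 30.9% higher without overlap, so that 3 and 4 of 16 pairs are no result about the pairs. After Lars2 the pair of Sars2 and Sars was the farthest apart, by 0.39 on the log2 scale, from 0.13 for Sars2 and -0.26 for Sars.

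**Figure D3:**
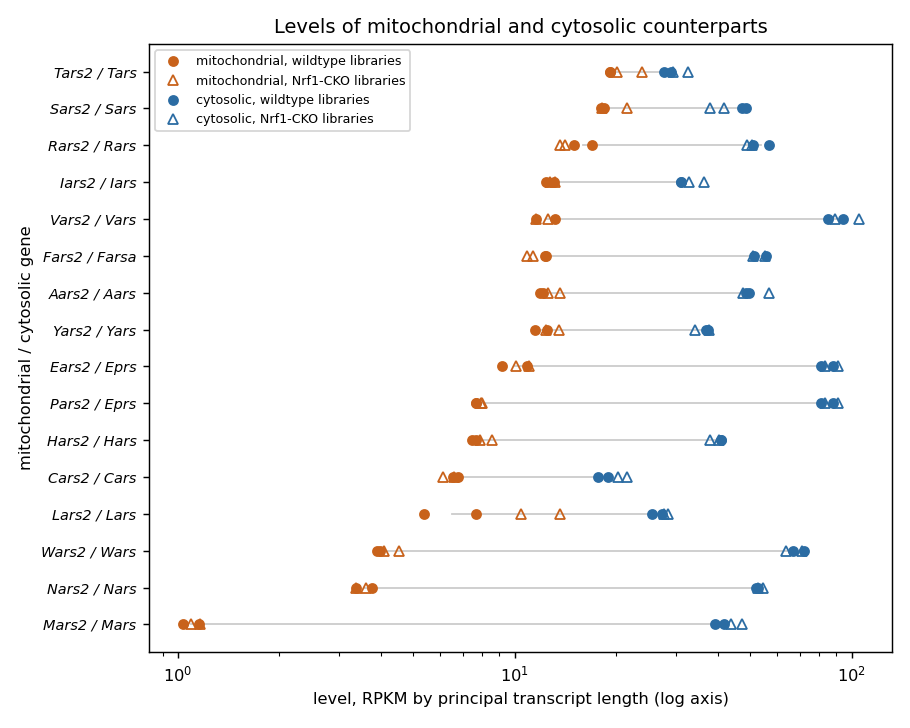
Level per length of each mitochondrial synthetase and its cytosolic counterpart (x axis, RPKM, log axis), with filled circles for wildtype and open triangles for Nrf1-CKO libraries. Every cytosolic gene lies to the right of its mitochondrial counterpart, by 1.48-fold for Tars and 37.0-fold for Mars in the wildtype, and among the mitochondrial genes the triangles of Lars2 lie farthest from its circles.

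The genes whose promoters held the Nrf1 motif were set beside the others. The 7 synthetases with the motif had log2 fold changes from -0.09 (Kars) to 0.13 (Tars and Wars2) with a median of 0.03, and none was called by the fold and p rule. The 20 without it had a median of 0.06, and Lars2 was the only gene called. Of all genes tested that had a promoter searched, 1667 held the motif, and of these 181 (10.9%) were called lower and 46 (2.76%) higher. Of the 10616 genes without the motif 7.09% were lower and 13.9% higher. The 5 synthetases with the ATF4 composite motif had values from -0.27 (Gars) to 0.16 (Iars) with a median of 0.09, and the 22 without it had a median of 0.04. Of the 342 genes tested that held this motif 8.48% were called lower and 17.0% higher, beside 7.58% and 12.3% of those without it.

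Genes of the amino acid response, which ATF4 is known to activate together with synthetase genes, were set beside the synthetases. Of 18 such genes outside the synthetase set, 12 were called higher and 2 lower by the fold and p rule, by which 12.8% of all genes tested were higher and 8.04% lower, with a median log2 fold change of 0.73. Atf3, a stress-induced transcription factor, held 61 and 77 wildtype reads and 428 and 688 Nrf1-CKO reads, a log2 fold change of 2.96. Chac1, which degrades glutathione, was higher by 1.97 on the log2 scale, Trib3, an inhibitory pseudokinase, by 1.79, Slc7a11, the cystine transporter, by 1.72, and Sesn2, a sensor of leucine, by 1.70. The 2 genes called lower were Shmt2, the mitochondrial serine hydroxymethyltransferase, at -0.72 and the lipoprotein receptor Vldlr at -0.75, both named after their values were seen. Reads of Atf4 itself numbered 14646 and 12333 in wildtype and 14921 and 16534 in Nrf1-CKO libraries, a log2 fold change of 0.19 that did not pass (edgeR adjusted p = 0.141). The cytosolic synthetases had 0 of 20 genes called higher and a highest value of 0.19. The difference between the sets was not tested.

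**Figure D4:**
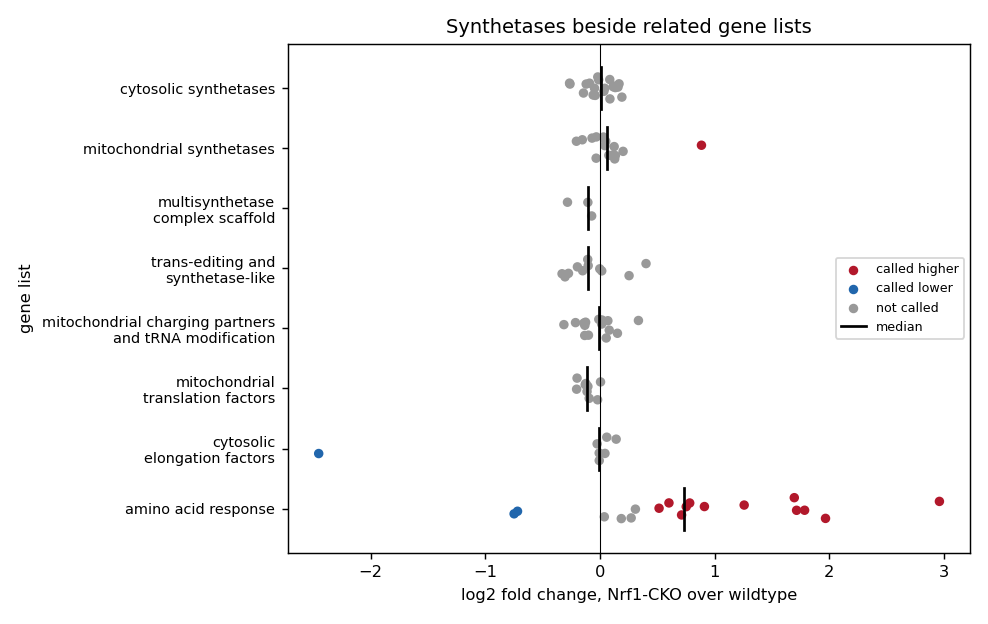
Log2 fold change (x axis, Nrf1-CKO over wildtype) of each gene of the synthetase sets and of 6 related lists, one row per list with small vertical shifts to separate the points. Black bars are medians, at 0.01 for cytosolic and 0.06 for mitochondrial synthetases and at 0.73 for the amino acid response genes, and red and blue points are genes called higher and lower by the fold and p rule.

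Some counts are uncertain because exons of at least 9 of the 36 genes overlap exons of another counted gene in the GENCODE M21 annotation. Neighbours were matched to counted genes by their M21 symbol only. Whether strand was used in counting is not given in the sources used here. Hars and Hars2 share 195 bases on opposite strands at their adjoining ends, and Mars shares 68 bases with Ddit3, itself a gene of the amino acid response. The longest shared stretches were 2034 bases of Iars2 with Rab3gap2 on the opposite strand and 1326 bases of Aars with Exosc6 on the same strand. Fars2 shares 501 bases with Nrn1 on the opposite strand, and Nrn1 was lower in Nrf1-CKO, with 1183 and 1180 wildtype reads and 227 and 113 Nrf1-CKO reads. The part of Nrn1 reads in the Fars2 value of -0.15 was not tested. Farsb, Yars and Ears2 overlapped neighbouring genes by shorter stretches.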

How the data were processed

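The RNA-seq data comprised 4 libraries of E13.5 retinas, 2 per genotype. The authors aligned paired-end reads to mm10 with TopHat2 (2.7.2 per the processing notes) and deposited whole-number read counts per gene from HTSeq. The authors also deposited normalized values on a log2 scale, used only as an alternative. The processing notes name DESeq and limma without saying what each was used for. The annotation release and the use of strand in counting are not given in the sources used here. HTSeq's 5 summary rows, 74.0% to 75.0% of all entries, stayed out of library sizes and tests. In the symbol column 27 rows hold dates in place of symbols, none of them a synthetase.

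Counts were filtered with filterByExpr (minimum count 10), scaled by TMM (factors 0.992 to 1.02) and tested with edgeR 4.0.16 (quasi-likelihood, genotype only), adjusted over all 15762 genes by Benjamini-Hochberg. A gene was called when it differed 1.4-fold or more with an adjusted p no higher than 0.2, the study's thresholds, and an adjusted p no higher than 0.05 alone was read beside it. The study's own test works from aligned reads, not used here. CPM use the scaled library sizes, and RPKM divide them by the length of the principal transcript. Alternatives were limma 3.58.1 on the log2 values, DESeq2 1.42.0, other scalings and filters, a replicate block and leaving out each library. Every member was accounted for. Per-library counts were given for those past either threshold and for Rars2 and Tars2, the ends of the mitochondrial range without Lars2. In the related lists other than cell type markers, genes past the fold and p rule were named, at most 5 in each direction by size. The members and lists were chosen with earlier results of these data known, so lists have counts and medians and no test. One promoter window is not reported here. Intervals cover counting error and the spread of 2 libraries per genotype, and PCR copies are not independent molecules.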

Additional observations from a re-analysis of the deposited data

How the results depend on the processing

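No alternative brought a synthetase other than Lars2 past the fold and p rule, and Lars2 stayed called in all of them, with log2 fold changes from 0.66 to 1.16 when a library was left out. With no minimum fold and an adjusted p of at most 0.05, 2 cytosolic genes were lower, Gars and Sars. The authors' log2 values, tested with limma, gave 723 lower and 945 higher genes against 1268 and 2024. The mitochondrial median was 0.0447 with library size only and 0.10 with upper-quartile scaling, which moved the median of all genes by 0.04. When each library was left out, it ranged from 0.0286 to 0.0922, and the cytosolic median from -0.0636 to 0.0569. With upper-quartile scaling Farsa (0.0280), Farsb (0.0205), Nars2 (0.0077) and Vars2 (0.0061) turned positive, and Gars (-0.23) and Sars (-0.22) lost their calls. Leaving out a library changed the sign of 13 genes, whose values with all libraries ran from -0.05 (Yars) to 0.13 (Sars2). Their values then ranged from -0.0511 to 0.21 for Aars, -0.0230 to 0.11 for Eprs, -0.0760 to 0.050 for Farsa, -0.0987 to 0.0553 for Farsb, -0.0054 to 0.23 for Vars, -0.12 to 0.0351 for Wars, -0.12 to 0.0224 for Yars, -0.0386 to 0.21 for Ears2, -0.0046 to 0.0736 for Iars2, -0.0289 to 0.13 for Mars2, -0.10 to 0.0527 for Nars2, -0.0028 to 0.25 for Sars2 and -0.12 to 0.0635 for Vars2. The causes were not tested. Over all genes tested, the differences between replicates 1 and 2 of the 2 genotypes had a correlation of -0.01. With 2 libraries per genotype this cannot show whether libraries of the same number shared a litter or day. With a replicate block Lars2 was at 0.89, Gars at -0.27 and Sars at -0.26, all 3 still below an edgeR adjusted p of 0.05. With 2 libraries per genotype, a change within the interval of a gene could not be told from none where that interval spans 0.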

Other observations

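Other genes that handle tRNAs were measured as well. Of 15 partners of mitochondrial tRNA charging and tRNA modification none was called by the fold and p rule. By this rule 8.04% of all genes tested were lower and 12.8% higher. The median log2 fold change of the 15 was -0.01. Their 95% interval lay within 1.4-fold in both directions for 11, beside 46.6% of all genes tested. Gtpbp3, which modifies mitochondrial tRNAs, held 2022 and 1949 wildtype reads and 2474 and 2689 Nrf1-CKO reads (log2 fold change 0.34, edgeR adjusted p = 0.0485). Of 11 trans-editing and synthetase-like genes none was called by the same rule, and the values ran from -0.33 to 0.40. The interval lay within 1.4-fold for 5 of the 11, close to the share of all genes tested. Xpot, the exporter of tRNA from the nucleus, had 9278 and 7514 reads against 10220 and 10270 reads (0.25, edgeR adjusted p = 0.0394). Both were named after their values were seen.

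None of 9 mitochondrial translation factors was called by the fold and p rule, by which 8.04% of all genes tested were lower and 12.8% higher. Their median log2 fold change was -0.11, with values from -0.20 (Mtif3) to 0.0050 (Tufm). Among 7 cytosolic elongation factors 1 was called by the same rule, as lower, which is no result about the list. Eef1a2, the form of elongation factor 1A found in neurons and muscle, fell from 1159 and 896 reads to 249 and 134 reads (log2 fold change -2.45, edgeR adjusted p = 0.000315), while its widely expressed paralogue Eef1a1 had a value of -0.02. RGC markers fell in the same libraries, and their part in the Eef1a2 value was not tested.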
